A study of Mus musculus with 8 samples.

Results

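The genes described here encode the actins, myosin, calponins, transgelins and smoothelin of the smooth muscle contractile apparatus, together with the non-muscle members of the calponin and transgelin families. They are Acta2, Actg2, Myh11, Myl9, Cnn1, Cnn2, Cnn3, Tagln, Tagln2 and Smtn, taken by symbol from a gene count table. All 10 had a row among the 30660 genes of that table. Each smooth muscle gene was compared with its relatives, in level and in change. The relatives included 12 further genes of the same families, all in the table.

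RNA sequencing was done on total RNA of primary vascular smooth muscle cells (VSMCs) of the mouse, the contractile cells of the vessel wall grown in culture. The control group, titled nc, held 4 libraries whose genotype and treatment are both labelled WT, and the other group, titled sisox6, held 4 libraries labelled as Sox6 knockdown. Sox6 is a SoxD transcription factor. The labels give no strain, age, vessel or duration of knockdown, and do not say that replicates are separate cultures, so the spread behind each p-value may be technical.

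In a differentiated VSMC, α-actin (Acta2) and γ-actin (Actg2) filaments are pulled by smooth muscle myosin, whose heavy chain is encoded by Myh11. The myosin is switched on when its regulatory light chain (Myl9) is phosphorylated by myosin light chain kinase. Calponin (Cnn1) and transgelin (Tagln, also called SM22α) are actin-binding proteins of the same family, and smoothelin (Smtn) marks contractile smooth muscle. The non-muscle relatives (Actb, Actg1, Myh9, Myh10, Cnn2, Cnn3, Tagln2) build the stress fibres and the cell cortex of most cell types. Transcription of the smooth muscle set is known to depend on serum response factor (Srf) and its partner myocardin (Myocd), which act at DNA elements called CArG boxes, and cultured VSMCs are known to lose much of it.

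Total counts per library ran from 37604102 to 49393224. Sox6 itself had 6, 10, 6 and 4 counts in the controls and 2, 4, 0 and 0 in the knockdown libraries, a difference with p = 0.0286 in an exact two-sided permutation test of CPM, the smallest p that 4 against 4 libraries can give. Its 32 counts over all libraries correspond to a mean of 0.144 CPM in the controls and 0.0318 CPM in the knockdown libraries. Sox6 was thus barely detected and did not pass the filter on low counts, so the size of its fall is uncertain. The summed CPM (counts scaled to a common library total) of 8 smooth muscle markers was 1132 to 1419 in the controls and 887 to 1133 in the knockdown libraries, most of it from Acta2. Acta2, Smtn, Myocd and Des fell and 0 of the 7 tested rose. Des went from 8.36 to 4.51 CPM. Several defining markers of the labelled cell type were close to 0: in the controls Tagln had 0.113 CPM, Myocd 0.414 CPM and Lmod1 0.587 CPM. Markers of other cell types were present. Summed CPM of 7 fibroblast markers was 2259 to 2425 in the controls and 1784 to 1955 in the knockdown libraries (3 fell, 2 rose), that of 8 cardiac and striated muscle markers 243 to 349.7 and 25.9 to 96.2 (all 8 fell), and that of 4 mesothelial markers 109 to 116 and 40.5 to 46.8 (all 4 fell). Most of the fibroblast sum came from Col1a1. The 4 pericyte markers summed to 118 to 131 and 563 to 621 CPM, most of it from Rgs5, which rose while 2 others fell. The 6 endothelial markers summed to 8.68 to 10.6 CPM and 4.77 to 6.51 CPM (4 fell, 1 rose), and the 5 macrophage and leukocyte markers to 31.0 to 35.0 CPM and 31.5 to 36.3 CPM (1 rose). Csf1r gave most of the last sum. Ptprc, Adgre1 and Itgam had 13, 4 and 2 counts over the controls and 20, 4 and 4 over the knockdown libraries. No listed marker was at 0 in all 8 libraries, and the part of these cell types in the results below was not tested.

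The controls held much Acta2 message and little of the other smooth muscle genes. In RPKM, which is CPM per kilobase of merged exons, Acta2 stood first among the 10 genes at 565 ± 62.0 RPKM (SD, n = 4 here and below). It was followed by the non-muscle genes, with Tagln2 at 189.6 ± 6.36 RPKM, Cnn2 at 143 ± 2.34 RPKM and Cnn3 at 108 ± 4.55 RPKM. Smtn came next at 12.5 ± 0.201 RPKM and Myl9 at 4.70 ± 0.244 RPKM. The remaining smooth muscle genes were near or under 1 RPKM, namely Actg2 at 1.12 ± 0.540 RPKM, Cnn1 at 0.816 ± 0.178 RPKM, Myh11 at 0.776 ± 0.130 RPKM and Tagln at 0.0567 ± 0.0263 RPKM. Neighbours in this order did not overlap over the control libraries except Actg2 with Cnn1 and Cnn1 with Myh11, whose order is within their spread.

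**Figure D1:**
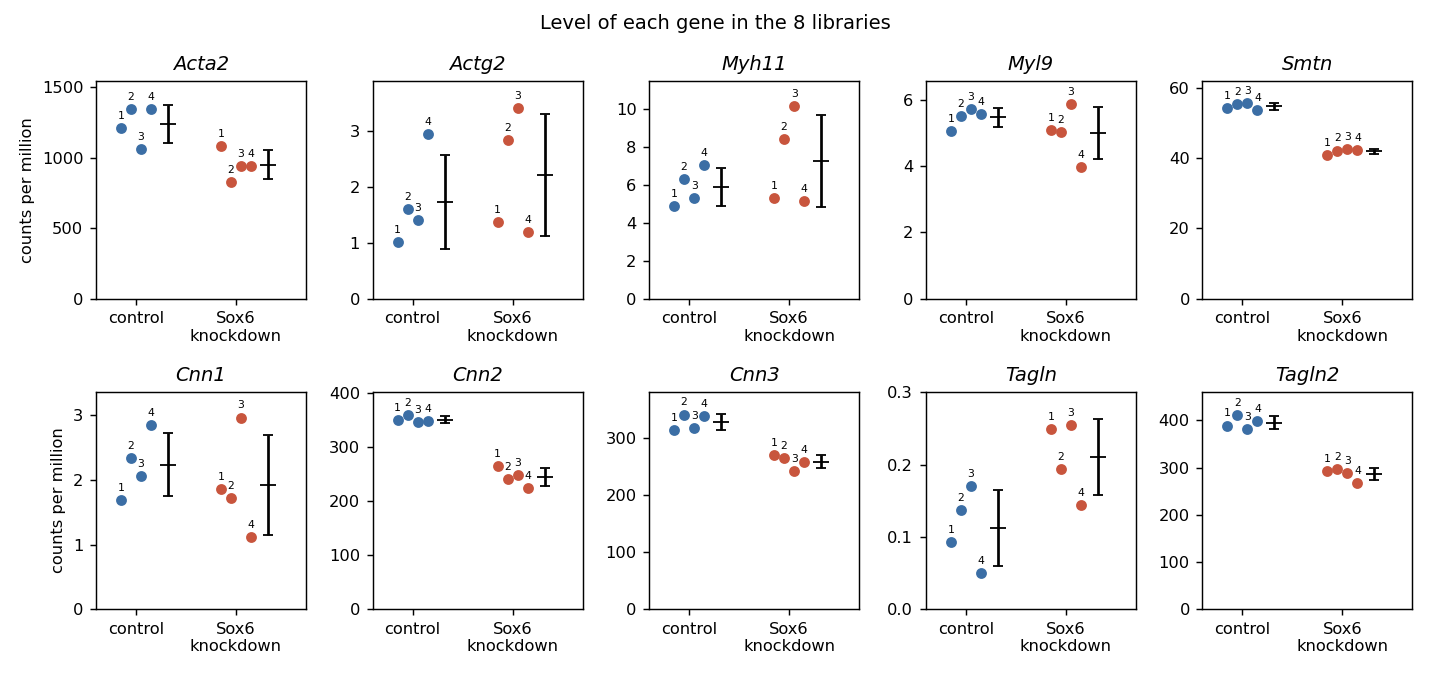
CPM of the 10 genes in every library, with 1 panel per gene on its own axis from 0, points numbered by replicate for the 4 control and 4 knockdown libraries, and the mean with an SD bar beside each group. Cnn2, Cnn3, Tagln2 and Smtn are lower in every knockdown library than in any control, whereas the groups overlap for Acta2, Actg2, Myh11, Myl9, Cnn1 and Tagln.

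Start regions of the genes were read for the CArG box, the element through which the smooth muscle set is known to be driven. RefSeq windows of 300 bases (250 before to 50 after the start, build GRCm38.p6) were matched by symbol for 18 of the 22 genes and 7 of the 10 listed ones. Actg2, Myh11, Tagln and Actb were not read. A CArG box (CC, a core of 6 A or T, GG, on either strand) stood in 1.63% of all 32851 windows and in those of Myl9, Cnn2, Actg1, Acta1 and Actc1. With 1 core base changed to G or C, in a search that leaves out the exact boxes, it stood in 8.50% of windows, among them those of Acta2, Myl9, Acta1, Actc1 and Myl12a. The following 40-base stretches are shown 5′ to 3′ on the strand of the gene, with the box in capitals. They are shown so that the smooth muscle, non-muscle and sarcomeric genes that carry the element can be compared with the values that follow.
Acta2, changed core, chr19:34255433-34255472, minus strand: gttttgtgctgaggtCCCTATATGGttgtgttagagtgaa
Acta2, changed core, chr19:34255383-34255422, minus strand: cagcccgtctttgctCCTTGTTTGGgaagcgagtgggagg
Myl9, exact box, chr2:156775288-156775327, plus strand: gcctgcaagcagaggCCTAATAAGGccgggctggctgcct
Myl9, changed core, chr2:156775350-156775389, plus strand: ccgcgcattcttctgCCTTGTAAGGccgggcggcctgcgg
Cnn2, exact box, chr10:79988529-79988568, plus strand: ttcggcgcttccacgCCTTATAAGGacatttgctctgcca
Actg1, exact box, chr11:120348561-120348600, minus strand: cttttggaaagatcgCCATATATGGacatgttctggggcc
Acta1, exact box, chr8:123894824-123894863, minus strand: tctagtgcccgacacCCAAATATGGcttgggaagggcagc
Actc1, exact box, chr2:114052898-114052937, minus strand: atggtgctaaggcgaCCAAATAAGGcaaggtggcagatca

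The boxes begin 84 and 34 bases before the RefSeq start in Acta2, 161 and 99 in Myl9, 56 in Cnn2, 90 in Actg1, 73 in Acta1 and 47 in Actc1. A start here is that of the RefSeq window, which is not always the end of the gene position used for counts below. The stretches of Acta2 and Actc1, and those of Tagln2 that follow, lie inside these gene positions. The windows of Cnn1, Cnn3, Tagln2 and Smtn held neither form. A search for CATTCC, the core letters bound by TEAD factors, on either strand gave matches in 14.7% of all windows and in those of Acta2, Tagln2 and Smtn among the 7 listed genes. Tagln2 held it at 118 and 80 bases before its start, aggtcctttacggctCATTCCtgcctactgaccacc at chr1:172500113-172500148 and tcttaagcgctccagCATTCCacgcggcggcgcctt at chr1:172500151-172500186, both on the plus strand. ACAAT, a core bound by Sox proteins, stood on either strand in 31.0% of all windows and in those of Cnn1 and Smtn among the listed genes. These matches describe the letters of the windows and say nothing about binding in these cells.

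With Sox6 knockdown the abundant genes of the set were lower and the scarce smooth muscle genes showed no change past the test. Of the 10 genes, 9 passed the filter on low counts and were tested with edgeR's quasi-likelihood test, and 5 of these fell at an adjusted p under 0.05 (Cnn2, Tagln2, Acta2, Smtn and Cnn3). None rose by edgeR, and none was higher at an unadjusted p under 0.05, by edgeR, DESeq2 or limma-voom, all of which gave 0. Actg2, Myh11, Myl9 and Cnn1 did not pass, and Tagln had too few counts to be tested. Among all 16150 genes tested, 26.0% were called lower and 25.4% higher, so that a call in one direction or the other (51.5%) was common in these libraries. The groups did not overlap in CPM for 4 of the 9 tested genes (Cnn2, Cnn3, Tagln2 and Smtn), against 46.9% of all genes tested. The median log2 fold change was -0.34 over the 9 tested genes and 0.02 over all genes tested. Counts of bulk libraries cannot tell apart fewer cells of a type and less RNA per cell.

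Acta2, the α-actin that is the most abundant contractile actin of vascular smooth muscle (build mm10, as for all gene positions here, chromosome 19, 34241090 to 34255590, minus strand), had 1211, 1345, 1059 and 1345 CPM in control libraries 1 to 4 and 1081, 831, 940.0 and 944 CPM in knockdown libraries 1 to 4. The groups overlapped slightly, since control 3 lay below knockdown 1, and the other 3 control libraries lay above every knockdown library. The means were 1240.2 ± 136 and 949 ± 102 CPM, and Acta2 fell, with a log2 fold change of -0.39 (SE 0.08, adjusted p = 0.00108). Both non-muscle actins fell as well. Actb, the cytoplasmic β-actin, went from 2406 ± 38.4 to 1747 ± 127 CPM, with a log2 fold change of -0.46 (SE 0.05, adjusted p = 2.79e-06), and Actg1, the cytoplasmic γ-actin, from 995 ± 20.3 to 786 ± 69.6 CPM, with a log2 fold change of -0.34 (SE 0.06, adjusted p = 0.000142). The log2 fold change of Acta2 lay between those of its non-muscle relatives. The log2 ratio of Acta2 to Actb within a library was -0.96 ± 0.18 in the controls and -0.88 ± 0.14 in the knockdown libraries, a difference of 0.08 with p = 0.571 in an exact two-sided permutation test. Against Actg1 the difference was -0.04 (exact p = 0.829).

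Acta2 made up 30.1% ± 2.44 of the summed RPKM of the 6 actin genes in the controls and 31.1% ± 2.28 in the knockdown libraries, with overlapping groups, beside 48.0% and 47.0% for Actb and 20.03% and 21.3% for Actg1. Per kilobase, Actb was 1.60-fold above Acta2 in the controls, and Acta2 1.50-fold above Actg1. The second of these orders turned with another gene length, the median over transcripts, at which the log2 ratio of Acta2 to Actg1 was -0.40. Of the 50-base stretches of Actg1, 37.4% occur in other genes, against 9.12% for Actb and 0.326% for Acta2. The level of Actg1 is therefore less certain than theirs.

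Actg2, the γ-actin of visceral smooth muscle (chromosome 6, 83512905 to 83536265, minus strand), had 1.01, 1.60, 1.41 and 2.95 CPM in the controls and 1.38, 2.85, 3.42 and 1.20 CPM in the knockdown libraries. The groups overlapped through most of their range, with control 4 and knockdown 2 and 3 high and the others low. Its log2 fold change was 0.35 (SE 0.35, 95% interval -0.41 to 1.10, adjusted p = 0.432), an interval that contains the change of Acta2. Per kilobase, Acta2 was 540-fold above Actg2 in the controls.

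The sarcomeric actins, which belong to cardiac and skeletal muscle, moved most within the family. Actc1, the cardiac α-actin, had 59.2, 41.7, 47.5 and 58.2 CPM in the controls and 5.40, 2.48, 5.36 and 10.8 CPM in the knockdown libraries. All control libraries lay far above all knockdown libraries, and Actc1 fell, with a log2 fold change of -3.10 (SE 0.27, adjusted p = 3.69e-07). Its share of the actin RPKM went from 1.71% ± 0.289 to 0.272% ± 0.171. All 8 cardiac and striated muscle markers fell too, and their part in the change of Actc1 was not tested. Acta1, the skeletal α-actin, had 1.08, 0.548, 0.809 and 0.998 CPM in the controls and 0.499, 3.53, 3.55 and 2.69 CPM in the knockdown libraries. Knockdown 1 was the lowest of all 8 libraries and the other 3 were the highest. Acta1 rose by the edgeR test (log2 fold change 1.58, SE 0.43, adjusted p = 0.00668), a call that was lost with limma-voom (adjusted p = 0.0822) and without replicate 2 of both groups (adjusted p = 0.0615).

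**Figure D2:**
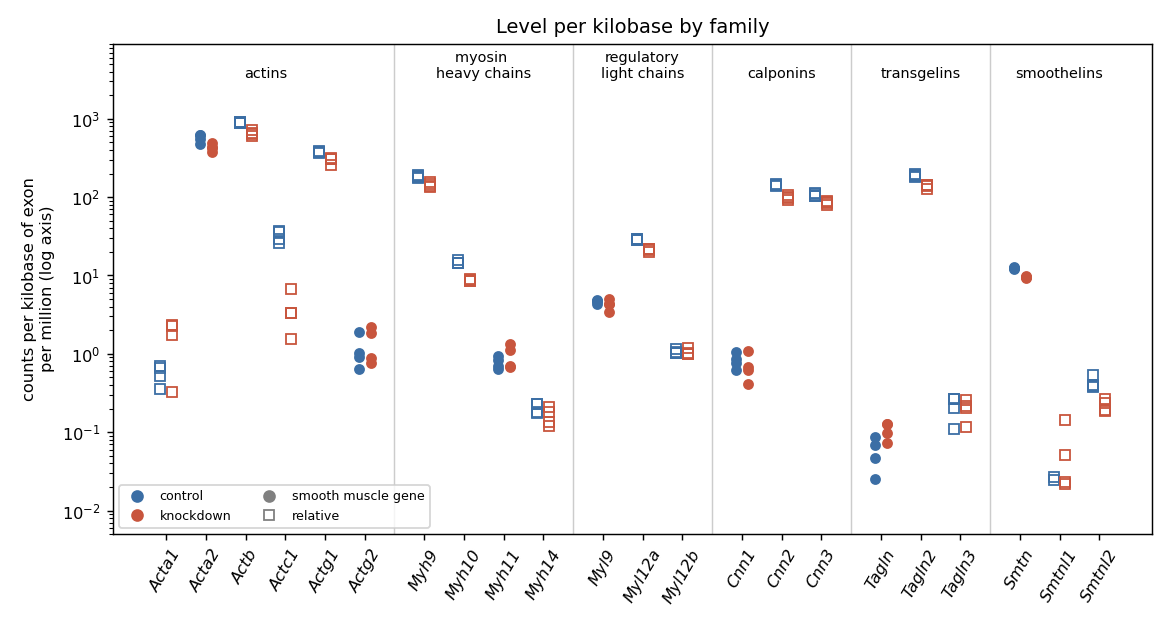
Levels of the listed genes and their relatives by family, in RPKM on a log axis, with 1 point per library, control and knockdown side by side, filled circles for smooth muscle genes and open squares for relatives. Myh9 and Myh10 lie above Myh11, and Myh14 below it, Cnn2 and Cnn3 lie above Cnn1, Tagln2 lies above Tagln, and Actc1 has the widest gap between groups. The 2 control libraries with 0 counts of Smtnl1 are not drawn.

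Myh11, the smooth muscle myosin heavy chain and a gene nearly restricted to smooth muscle (chromosome 16, 14194535 to 14291372, minus strand), had 4.88, 6.33, 5.32 and 7.06 CPM in the controls and 5.33, 8.42, 10.2 and 5.19 CPM in the knockdown libraries. Knockdown 2 and 3 were above every control, and knockdown 1 and 4 lay at the lower end of the control range. The log2 fold change was 0.30 (SE 0.19, 95% interval -0.12 to 0.72, adjusted p = 0.213). The call depended on the processing, since Myh11 passed with no filter on low counts (adjusted p = 0.0284) and without replicate 4 of both groups (log2 fold change 0.53, adjusted p = 0.0406). The log2 fold change was nearer 0 when the highest library was left out, at 0.10 (adjusted p = 0.663) without knockdown 3 and 0.056 (adjusted p = 0.836) without replicate 3 of both groups.

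Of its 3 non-muscle relatives, 2 were far more abundant than Myh11 and fell. Myh9, the heavy chain of non-muscle myosin IIA, fell from 2370.0 ± 85.4 to 1874 ± 124 CPM, with a log2 fold change of -0.34 (SE 0.05, adjusted p = 5.68e-05). Myh10, the heavy chain of non-muscle myosin IIB, had 152, 149.9, 163 and 151 CPM in the controls and 89.6, 89.8, 95.5 and 90.5 CPM in the knockdown libraries. The groups were well apart, and the log2 fold change of -0.75 (SE 0.04, adjusted p = 3.44e-09) was the furthest below 0 among the relatives outside the sarcomeric actins with more than 10 CPM. Myh14, the heavy chain of non-muscle myosin IIC, had 1.48 ± 0.205 and 1.18 ± 0.295 CPM and did not pass (log2 fold change -0.33, adjusted p = 0.213).

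Within a library, the log2 ratio of Myh11 to Myh10 was -4.96, -4.56, -4.94 and -4.42 in the controls and -4.07, -3.41, -3.23 and -4.12 in the knockdown libraries. Every knockdown library lay above every control. The mean went from -4.72 ± 0.27 to -3.71 ± 0.45, a difference of 1.01 with p = 0.0286 in an exact two-sided permutation test and p = 0.114 after Benjamini-Hochberg adjustment over the 12 pairs of genes compared. Per kilobase, Myh10 was 19.1-fold above Myh11 in the controls and 9.49-fold above it in the knockdown libraries. The share of Myh10 in the summed RPKM of 4 myosin heavy chains went from 7.41% ± 0.486 to 5.66% ± 0.344 and that of Myh9 from 92.1% ± 0.446 to 93.6% ± 0.522, neither with overlap between groups. The share of Myh11 was 0.389% ± 0.0552 and 0.622% ± 0.212. Against Myh9 the ratio of Myh11 differed by 0.60 (exact p = 0.0857).

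Myl9, the regulatory light chain of smooth muscle myosin (chromosome 2, 156775420 to 156781658, plus strand), had 5.06, 5.51, 5.73 and 5.57 CPM in the controls and 5.08, 5.02, 5.87 and 3.97 CPM in the knockdown libraries. The groups overlapped, and knockdown 4 alone was clearly low. The log2 fold change was -0.14 (SE 0.12, 95% interval -0.39 to 0.12, adjusted p = 0.362). Myl12a, a regulatory light chain of non-muscle myosin, fell from 96.5 ± 1.14 to 70.9 ± 2.61 CPM, with a log2 fold change of -0.44 (SE 0.04, adjusted p = 5.41e-07). Per kilobase it was 6.10-fold above Myl9 in the controls and 4.96-fold above it in the knockdown libraries, and the ratio of the pair differed by 0.30 on the log2 scale (exact p = 0.114). Myl12b, its close copy, was scarce at 2.95 ± 0.186 and 2.90 ± 0.227 CPM, with a log2 fold change of -0.03 (adjusted p = 0.874). The counts of both are uncertain. A further Ensembl gene also named Myl12b, not analysed here, overlaps 26.7% of the exon bases of Myl12b and 13.8% of those of Myl12a, and 21.1% of the 50-base stretches of Myl12a occur in other genes. Myom1, on the opposite strand, covers 6.16% of the exon bases of Myl12a. It had 1934 counts in the controls and 557 in the knockdown libraries, against 16734 and 13029 for Myl12a. Its part in the fall of Myl12a was not tested.

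Among the calponins, Cnn2 and Cnn3 fell and Cnn1 did not pass the test. Cnn1, the smooth muscle calponin (chromosome 9, 22099216 to 22109630, plus strand), had 1.69, 2.33, 2.07 and 2.85 CPM in the controls and 1.86, 1.73, 2.96 and 1.12 CPM in the knockdown libraries. The groups overlapped through nearly the whole range, from knockdown 4 at the bottom to knockdown 3 at the top. The log2 fold change was -0.23 (SE 0.25, 95% interval -0.77 to 0.31, adjusted p = 0.473). The interval contains the changes of both non-muscle calponins.

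Cnn2, the calponin of non-muscle and growing cells (chromosome 10, 79988584 to 79996062, plus strand), had 351, 359, 346 and 348 CPM in the controls and 265, 241, 249 and 225 CPM in the knockdown libraries. The control libraries lay within a narrow band above all knockdown libraries. Cnn2 fell from 351 ± 5.75 to 245 ± 16.8 CPM, with a log2 fold change of -0.52 (SE 0.05, adjusted p = 5.27e-07).

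Cnn3, the acidic calponin found in many non-muscle cells (chromosome 3, 121426497 to 121458207, plus strand), had 314, 341, 317 and 337 CPM in the controls and 270.0, 265, 242 and 258 CPM in the knockdown libraries. Again no knockdown library reached a control. Cnn3 fell from 327 ± 13.8 to 259 ± 12 CPM, with a log2 fold change of -0.34 (SE 0.04, adjusted p = 1.96e-05). Of the 50-base stretches of its exons, 24.0% occur in other genes, which makes its absolute level less certain than that of Cnn2, for which the share is 0.

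Per kilobase, Cnn2 was 177-fold and Cnn3 134-fold above Cnn1 in the controls. The log2 ratio of Cnn1 to Cnn2 differed by 0.24 between the groups (exact p = 0.486) and that of Cnn1 to Cnn3 by 0.06 (exact p = 0.886). Within the family, the share of Cnn2 in the summed RPKM went from 56.8% ± 0.898 to 53.7% ± 1.75 and that of Cnn3 from 42.9% ± 0.835 to 46.0% ± 1.89, with no overlap between the groups in either. Cnn1 took 0.324% and 0.377%.

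Tagln, the transgelin of smooth muscle and an abundant message of contractile VSMCs (chromosome 9, 45929619 to 45936058, minus strand), was nearly missing. It had 4, 6, 8 and 2 counts in the controls and 11, 10, 10 and 7 in the knockdown libraries, or 0.0938, 0.137, 0.170 and 0.0499 CPM against 0.249, 0.194, 0.255 and 0.145 CPM. Scaled to library size the groups overlapped, since control 3 lay above knockdown 4. A count of 3 corresponds to 0.0607 to 0.0798 CPM, so these values lie close to the floor. The summed counts were 20 and 38, a ratio of 1.93 (95% interval for counting error 1.09 to 3.50, and 0.853 to 4.64 on halved counts, which includes no difference). Tagln did not pass the filter, and without a filter its adjusted p was 0.368.

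The Tagln counts are uncertain for another reason. Exons of other genes on the opposite strand cover 67.9% of its exon bases, 62.4% by Gm48529 and 5.43% by Pcsk7, and no source states a strand rule for the counting. Gm48529 itself had 62 and 81 counts in the groups. With no strand rule, reads of Tagln and of these genes cannot be told apart.

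Tagln2, the transgelin of non-muscle and blood cells (chromosome 1, 172500047 to 172507380, plus strand), had 389, 411, 381 and 399 CPM in the controls and 293, 296, 289 and 267 CPM in the knockdown libraries. The groups were well apart. Tagln2 fell from 395 ± 13.2 to 286 ± 13.3 CPM, with a log2 fold change of -0.46 (SE 0.04, adjusted p = 6.88e-07). It made up 99.9% of the summed RPKM of the 3 transgelins in the controls and 99.8% in the knockdown libraries. Tagln3, the neuronal transgelin, was at 0.261 ± 0.0893 and 0.247 ± 0.0733 CPM, with a log2 fold change of -0.08 (adjusted p = 0.883). The log2 ratio of Tagln to Tagln2 went from -11.74 ± 0.69 to -10.37 ± 0.32 without overlap, a difference of 1.37 with an exact p of 0.0286 and an adjusted p of 0.114, and it carries the uncertainty of the Tagln counts.

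Smtn, smoothelin (chromosome 11, 3517523 to 3540612, minus strand), had the tightest values of the set, with 54.2, 55.2, 55.5 and 53.7 CPM in the controls and 41.0, 42.1, 42.6 and 42.2 CPM in the knockdown libraries. The groups did not overlap. Smtn fell from 54.6 ± 0.881 to 42.0 ± 0.705 CPM, with a log2 fold change of -0.38 (SE 0.04, adjusted p = 2.18e-06), a change like that of Acta2 in size. Gm11946, on the opposite strand, covers 16.3% of its exon bases but had only 60 and 71 counts in the groups, against 9485 for Smtn in the controls. Smtnl2, a smoothelin-like gene, had 1.45, 2.06, 1.53 and 1.50 CPM in the controls and 0.726, 1.01, 0.715 and 0.909 CPM in the knockdown libraries. It fell without overlap of the groups (log2 fold change -0.95, SE 0.21, adjusted p = 0.00154). The log2 ratio of Smtn to Smtnl2 went from 5.07 ± 0.22 to 5.64 ± 0.23, a difference of 0.57 with an exact p of 0.0286 and an adjusted p of 0.114. Smtnl1, another relative, had 2, 0, 2 and 0 counts in the controls and 4, 2, 10 and 2 in the knockdown libraries and was not tested.

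**Figure D3:**
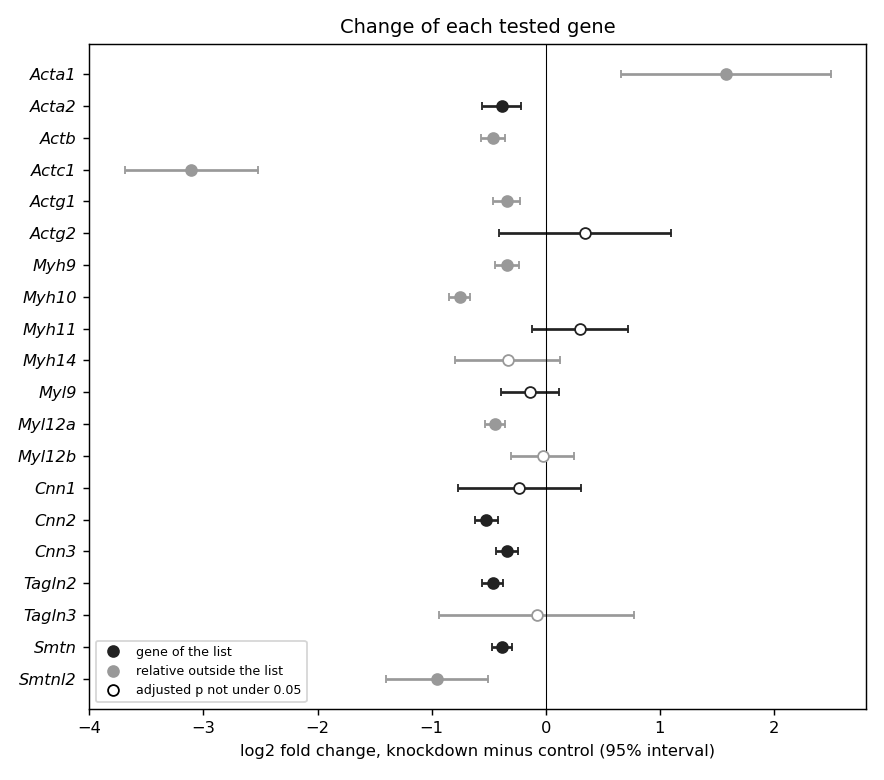
Log2 fold changes (knockdown minus control) of the tested genes and their relatives, with 95% intervals from edgeR, black for the 9 listed genes, grey for relatives and open points where the adjusted p was not under 0.05. The intervals of Acta2, Cnn2, Cnn3, Tagln2 and Smtn lie below 0, those of Actg2, Myh11, Myl9 and Cnn1 include 0, and Actc1 at -3.10 stands apart from the rest.

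Set side by side, the smooth muscle gene named first was lower per kilobase than the second gene in 8 of the 12 pairs in the controls. The exceptions were Acta2 against Actg2, which are both smooth muscle genes, Acta2 against Actg1, Myl9 against Myl12b and Smtn against Smtnl2. The sizes of these level ratios depend on the gene length used. With the median transcript in place of merged exons, the log2 ratio in the controls was -11.07 instead of -7.90 for Myh11 to Myh9, -6.74 instead of -4.26 for Myh11 to Myh10 and -6.35 instead of -7.47 for Cnn1 to Cnn2. It was -1.69 instead of -0.68 for Acta2 to Actb and -3.31 instead of -2.61 for Myl9 to Myl12a. Over exon bases free of other genes, it was -10.04 instead of -11.67 for Tagln to Tagln2. Myl9 to Myl12b ranged from 1.67 to 2.14 and Smtn to Smtnl2 from 4.42 to 5.14 over the 4 lengths tried. In change, 2 of 6 tested smooth muscle genes fell (Acta2 and Smtn) and 3 of 3 non-muscle genes of the list fell, against 26.0% of all genes tested. The median log2 fold change was -0.18 over the first and -0.46 over the second, and the difference between these sub-lists was not tested. Among the 11 tested relatives outside the list, 7 fell, Acta1 rose and Myh14, Myl12b and Tagln3 did not pass. The change in ratio reached an unadjusted p under 0.05 in 3 of 12 pairs, each at the smallest p that 70 assignments of the libraries allow, 0.0286, and 0 of 12 pairs passed after adjustment. With only 3 pairs at this smallest p, none could have passed, however far apart the groups lay. In all 3 the ratio moved toward the smooth muscle gene, but none of these genes was called higher by the main test. Smtn fell, Myh11 did not pass and Tagln was not tested, whereas the relatives Myh10, Tagln2 and Smtnl2 all fell. The ratio moved away from the gene named first for Acta2 to Actg2 (-0.70), Myl9 to Myl12b (-0.12) and Acta2 to Actg1 (-0.04). These reached no unadjusted p under 0.05. The genes that did not pass had group means under 10 CPM and standard errors of 0.12 to 0.35, against 0.04 to 0.08 for the 5 that fell, so a change as large as that of Acta2 lies within the interval of Actg2, Myl9 and Cnn1, but below that of Myh11.

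Of the 5 scarce smooth muscle genes, 4 varied together between libraries of the same group, a pattern noticed in the values. Actg2, Myh11, Cnn1 and Myl9 were each lowest in control 1 among the controls and in knockdown 4 among the knockdown libraries, and each was highest in knockdown 3. Actg2, Myh11 and Cnn1 were also highest in control 4. Tagln, at 2 to 11 counts, shared the knockdown order (highest in 3, lowest in 4) but was highest in control 3 and lowest in control 4. From the lowest to the highest knockdown library, Actg2 spanned 2.86-fold, Cnn1 2.65-fold, Myh11 1.96-fold and Myl9 1.48-fold in CPM. The abundant genes spanned less, with 1.30-fold for Acta2, 1.18-fold for Cnn2, 1.11-fold for Cnn3 and Tagln2 and 1.04-fold for Smtn. Acta2 did not share the order, being highest in knockdown 1 and lowest in knockdown 2. The pattern was not confined to smooth muscle genes. Myl12b, a scarce non-muscle relative, was likewise lowest in control 1 and knockdown 4 and highest in knockdown 3. Myh14, also scarce, was lowest in control 1 and highest in control 4 and knockdown 3, but its lowest knockdown library was 1. Smtnl2 and Tagln3 were not highest in knockdown 3. The genes were measured in the same 8 libraries, whose depths differ, so this is a description of those libraries.

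**Figure D4:**
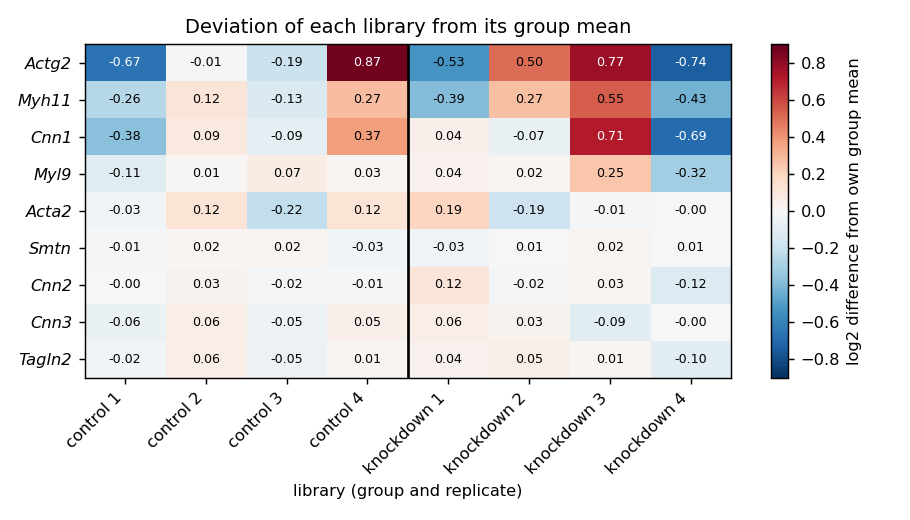
Heat map of the deviation of each gene (rows) from its group mean in each library (columns), in log2 CPM, with red above and blue below the mean. Actg2, Myh11 and Cnn1 run below their mean in control 1 and knockdown 4 and above it in control 4 and knockdown 3, whereas Smtn, Tagln2, Cnn2 and Cnn3 stay near 0.

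Most genes of the wider contractile apparatus were lower as well. Of 36 further genes for actin cross-linkers, tropomyosins, regulators of myosin phosphorylation and transcription factors of the smooth muscle programme, all 36 were tested, 24 fell and 12 did not pass, where 26.0% of all genes tested were called lower. None rose by edgeR, and 0 were higher at an unadjusted p under 0.05 or by DESeq2 or limma-voom. The median log2 fold change was -0.41, against 0.02 over all genes. The smallest p-values belonged to Actn1, a stress fibre α-actinin, which fell from 559.8 ± 15.8 to 338 ± 10.3 CPM, with a log2 fold change of -0.73 (adjusted p = 2.55e-09), and to Cald1, caldesmon, which fell with a log2 fold change of -0.69 (adjusted p = 1.03e-08). Tpm2, the β-tropomyosin, fell by 0.62 log2 units (adjusted p = 5.45e-08) and Cav1, caveolin-1, by 0.57 log2 units (adjusted p = 1.19e-07). Myocd, Srf, Mrtfa and Mylk, named after their values were seen, also fell. Myocd went from 0.414 ± 0.0434 to 0.0668 ± 0.0465 CPM, with a log2 fold change of -2.61 (adjusted p = 0.000211), a level at the floor of 3 counts in the knockdown libraries. The 8 cardiac and striated muscle markers had log2 fold changes from -5.00 (Myh7) to -2.14 (Tnnt2). The part of such cells in the change of Myocd was not tested. Srf fell from 56.4 ± 1.98 to 46.5 ± 5.61 CPM, with a log2 fold change of -0.28 (adjusted p = 0.00400). Mrtfa, an actin-sensing cofactor of Srf, had a log2 fold change of -0.18 (adjusted p = 0.0116), and Mylk, myosin light chain kinase, one of -0.47 (adjusted p = 0.00215). Mrtfb, the other cofactor of this kind, had 93.96 ± 4.38 and 96.4 ± 3.51 CPM (adjusted p = 0.516). Among the genes read above with a CArG box or its changed form, Acta2, Cnn2, Actg1, Actc1 and Myl12a fell, Acta1 rose and Myl9 did not pass. Among those read with neither form, Cnn3, Tagln2, Smtn, Smtnl2, Myh9 and Myh10 fell too. Cnn1, Myh14, Myl12b and Tagln3 did not pass, and Smtnl1 was not tested. A call lower was common, at 26.0% of all genes tested, and a link between the element and the change was not tested.

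The patterns most like those of Acta2 and Tagln2 were found by the root mean square difference in log2 CPM, each gene taken relative to its own control mean, over 8 libraries and 11835 genes with an average of at least 1 log2 CPM. Nearest to Acta2 was Lrp1, a large endocytic receptor, at 0.0602, and Rilpl1, Orai2 and Irf1 were also near, at up to 0.0695, where the median gene differed by 0.346. Nearest to Tagln2 were Kctd10 at 0.0311, Nmi, Unc5b, Vim (vimentin, an intermediate filament of mesenchymal cells) and Nsun2 at up to 0.0365, against a median of 0.363. None of the other 9 listed genes was among the 5 nearest to either. Tagln, under the limit on level, could not have been. The difference also takes in spread between libraries, which was wide in Actg2, Cnn1 and Myh11. Their absence therefore says little about them.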

How the data were processed

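Bulk RNA sequencing was done on 8 libraries, 4 control and 4 with Sox6 knockdown, with TRIzol extraction and NEBNext Ultra RNA library preparation per the labels' protocols. The values used were read counts per gene as deposited by the authors, whole numbers with no normalization. Build mm10 and DESeq2 are named in the submitters' processing notes. No aligner, counter or strand rule is given in the sources used here, so reads of overlapping genes on opposite strands, and of near-identical copies, cannot be told apart. In each library 72.0% to 74.2% of the counts from 1 to 40 were even, so counts halved were tried as an alternative. All columns of the table were matched to samples by title. No pair of libraries of a group differed by as little as sampling noise (lowest chi-square per degree of freedom 6.15).

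Symbols, positions and exon lengths came from the GENCODE M21 annotation of the same build, which named 30008 of 30660 identifiers. In R 4.3.3, edgeR 4.0.16 was run with TMM scaling and filterByExpr (minimum count 10), which kept 16150 genes. The quasi-likelihood test compared the groups over 8 libraries without covariates. Genes were called at a Benjamini-Hochberg adjusted p under 0.05 over all tested genes. CPM and RPKM use TMM-scaled totals, and RPKM the merged exon length. Ratios of 2 genes were log2 of counts with 0.5 added, compared by exact two-sided permutation tests and adjusted over 12 pairs. DESeq2 1.42.0 and limma 3.58.1 (voom) were alternatives, with other scalings, filters, gene lengths, added constants, a replicate block and left-out libraries. The edgeR script was tested on simulated data. Without molecular identifiers, intervals and floors (3 counts) reflect counting error alone.

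The genes named are the 10 listed ones, 12 relatives, Sox6, up to 4 genes of the contractile apparatus list with the smallest p and the 5 genes nearest in pattern to Acta2 and to Tagln2, of which 1 is not reported here. Any other gene named was chosen after its values were seen or is a marker or an overlapping gene. The members and lists were chosen with earlier results of these data known.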

Additional observations from a re-analysis of the deposited data

Results flagged for a closer look

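Of 68 groups of 4 libraries examined (CPM of each gene and log2 ratio of each pair), 6 had 1 library far from the others by Dixon's criterion at 95%, and chance flags about 1 group in 20. Myh10 was high in control 3, at 163 CPM against 149.9 to 152 CPM in the other controls. It was also high in knockdown 3, at 95.5 CPM against 89.6 to 90.5 CPM. Myl12b was high in knockdown 3, at 3.24 CPM against 2.77 to 2.81 CPM. Smtnl2 was high in control 2, at 2.06 CPM against 1.45 to 1.53 CPM, and the log2 ratio of Smtn to Smtnl2 was correspondingly low there, at 4.74 against 5.15 to 5.21. The log2 ratio of Myl9 to Myl12b was low in knockdown 4, at 0.52 against 0.84 to 0.85, the library in which Myl9 was lowest. None of the 5 listed genes that fell was among these.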

How the results depend on the processing

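Under 21 alternatives the same 5 genes fell, with log2 fold changes of -0.47 to -0.29 for Acta2, -0.56 to -0.42 for Cnn2, -0.38 to -0.24 for Cnn3, -0.49 to -0.36 for Tagln2 and -0.39 to -0.28 for Smtn. The genes called over the whole table numbered 8311, with 7180 to 8032 when libraries were left out and 7639 to 8971 otherwise. Total count scaling moved the split to 5926 higher and 3045 lower and the median of all genes to 0.12, and upper quartile scaling gave 4774 and 3701. Listed genes called higher numbered 1 with no filter on low counts (Myh11) and 0 to 2 when libraries were left out; the 2 were Myh11 and Actg2 (0.93) without replicate 4 of both groups. Actg2 reversed to -0.019 without replicate 3 of both groups, and Cnn1 to 0.095 without replicate 4 of both. Myl12b reversed to 0.012 with upper quartile scaling and 0.074 with total counts, and to 0.015 and 0.035 without replicate 2 of the controls or of both groups (lowest -0.082 without knockdown 3 and -0.085 without replicate 3 of both). Tagln3 reversed to 0.020 with total counts and to 0.05, 0.03, 0.11 and 0.23 without control 1, control 4, knockdown 4 and replicate 4 of both. Pairs whose ratios did not overlap numbered 3 to 7 when libraries were left out (5 without control 4, 7 without replicate 4 of both), with fewer libraries to separate. The level ratio of Acta2 to Actg1 turned to -0.40 with median transcript length, which gave 9 pairs instead of 8 with the smooth muscle gene named first lower. The cause of these changes was not tested. The labels do not say whether the replicate numbers pair the libraries. Same-numbered libraries showed no clear shared deviation (correlations 0.0039, -0.031, 0.031 and 0.057), which cannot decide whether they were paired. With the numbers as a block, 7985 genes were called, and the same 5 listed genes fell; the sign-flip test of ratios cannot go below the 0.125 it gave for Myh11 to Myh10, Tagln to Tagln2 and Smtn to Smtnl2. Among the listed genes under 10 CPM, Tagln above all is limited by its counts. For Myh11 and Actg2, counts are not the only limit. Their ratios of summed counts, knockdown over control, had 95% intervals for counting error of 1.21 to 1.43 and 1.17 to 1.59. On halved counts these were 1.17 to 1.48 and 1.10 to 1.71. All lie above no difference, yet neither gene passed the main edgeR test, whose standard error includes spread between libraries.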
